A study of Arabidopsis thaliana with 3 samples.

Results

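The 6 Arabidopsis thaliana genes described here encode AP2-type transcription factors whose mRNAs carry a site for the microRNA miR172. They are AP2 (AT4G36920), TOE1 (AT2G28550), TOE2 (AT5G60120), TOE3 (AT5G67180), SMZ (AT3G54990) and SNZ (AT2G39250), and they were taken by gene identifier, 6 of the 26810 genes that had a value in any table. The libraries were 1 made by GMUCT and 2 made by RNA-seq. All of them came from immature inflorescences of plants carrying dcl1-7, a mutant allele of the Dicer gene DCL1, whose product processes microRNA precursors. Buds were collected at about 4 weeks from otherwise untreated plants kept under 16 h light and 8 h dark. The libraries were strand-specific, made from polyA RNA and read over 50 nt. GMUCT captures polyA RNAs by an uncapped 5′ end, which arises when a transcript is decapped or cut. RNA-seq sequences polyA RNA whether capped or not. Every library carried dcl1-7 and no other genotype was analysed here, so the values below describe uncapped RNA against mRNA within the mutant and say nothing of what the mutation changed.

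miR172 is cut from its precursors by DCL1 and, loaded into an Argonaute protein, both cuts these mRNAs within the site and blocks their translation. AP2 sets sepal and petal identity and keeps AG, the gene for stamens and carpels, out of the outer flower organs. TOE1, TOE2, TOE3, SMZ and SNZ are known for delaying flowering, and miR172 accumulates as the plant ages and releases flowering from them.

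The microRNA sequences are shown because they define the group. RefSeq on TAIR10.1 lists 5 mature forms of the strand that pairs with these mRNAs, each of 21 nt and each with the same seed, bases 2 to 8, written here in capitals.

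ath-miR172a: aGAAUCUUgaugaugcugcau

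ath-miR172b-3p: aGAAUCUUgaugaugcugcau

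ath-miR172c: aGAAUCUUgaugaugcugcag

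ath-miR172d-3p: aGAAUCUUgaugaugcugcag

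ath-miR172e-3p: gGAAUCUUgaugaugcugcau

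The forms differed only at the first or the last base. The 5 precursor genes, MIR172A to MIR172E, had no value in the tables used here.

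Each member held a window complementary to miR172a with at most 4 mismatches and no gap. The perfect complement of miR172a comes first below, then the site of each gene, all 5′ to 3′ on the mRNA strand, with capitals at bases that differ from the perfect complement.

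Perfect complement: atgcagcatcatcaagattct

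TOE2: atgcagcatcatcaGgattct

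AP2: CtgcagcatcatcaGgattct

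TOE1: CAgcagcatcatcaGgattct

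TOE3: TGgcagcatcatcaGgattct

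SMZ: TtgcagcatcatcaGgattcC

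SNZ: TtgTagcatcatcaGgattcC

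Counting from 1 at the 5′ end of the site, with the base of the perfect complement first, all 6 sites carried A15G. This position faces base 7 of the microRNA, inside the seed, where the U of the microRNA can still form a G:U pair. TOE2 had this change alone. AP2 had A1C as a second change. TOE1 had A1C and T2A besides, and TOE3 had A1T and T2G, so both departed from the complement at the end that faces the last bases of the microRNA. SMZ had A1T and T21C, and SNZ had A1T, C4T and T21C. Counted against miR172a without G:U pairs, TOE2 had 0 mismatches, AP2 had 1 and the other members had 2 each. These counts depend on the form of miR172. The C that opens the AP2 and TOE1 sites pairs with the last g of miR172c and miR172d-3p, and the A that opens the TOE2 site does not. The C that ends the SMZ and SNZ sites pairs with the first g of miR172e-3p.

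The sites lay on TAIR10.1 at chr5:24210889-24210909 on the plus strand for TOE2 and chr4:17403019-17403039 on the plus strand for AP2. On the minus strand lay TOE1 at chr2:12226233-12226253, TOE3 at chr5:26802175-26802195, SMZ at chr3:20373774-20373794 and SNZ at chr2:16389066-16389086. In every member the site was coding in at least 1 annotated isoform. The exon was the last of the isoform in AP2 (exon 10 of 10), TOE1 (9 of 9), TOE3 (9 of 9), SMZ (7 of 7) and SNZ (7 of 7), and the last but one in TOE2 (9 of 10). Isoforms differed in this respect. The site was coding in both AP2 isoforms, and in 3 of 6 isoforms each of TOE1 and TOE2, where the other 3 held it in the 3′ UTR. Only 1 of the 4 TOE3 isoforms and 1 of the 2 SMZ isoforms contained it, while the 2 SNZ isoforms had it coding in 1 and in the 3′ UTR in the other.

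**Figure D1:**
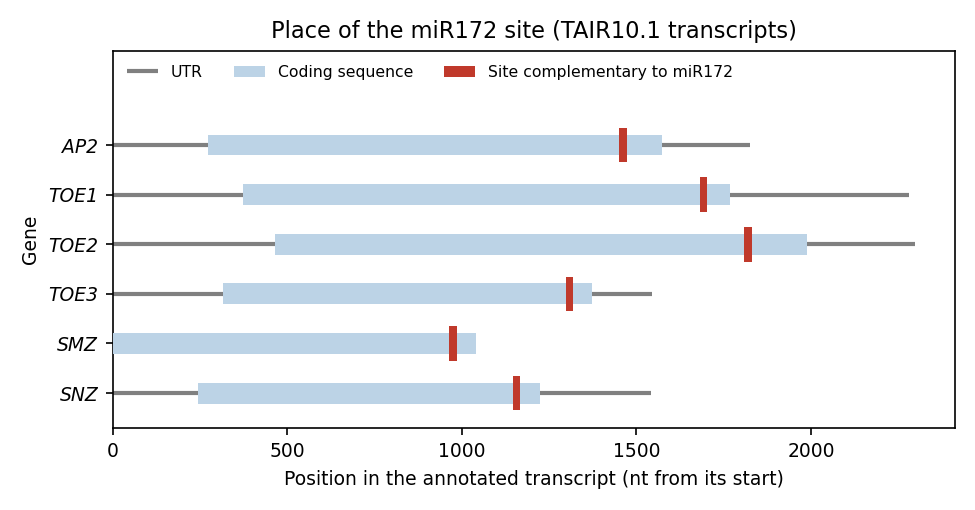
Place of the miR172 site in 1 annotated transcript of each gene, with position in nt from the transcript start on the x axis, blue bars for coding sequence, grey lines for UTRs and red bars for the site. In each gene the site sits near the 3′ end of the coding sequence, with between 56 nt (SMZ, which has no annotated UTR) and 577 nt (TOE1) of transcript after it.

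The site began at base 1452 of 1825 in the AP2 transcript and at base 1810 of 2297 in that of TOE2, which left 353 and 467 bases after it. The deposited values are 1 number per gene and do not show where in a transcript the uncapped ends lay, so ends at the site could not be told from ends elsewhere. The same search over the transcripts of 37880 annotated genes found a window with at most 4 mismatches in 47 genes, 0.1241% of them. They were the 6 members and 41 others, of which 4 were miR172 precursor genes. At most 2 mismatches left TOE2, AP2 and AT3G08845, a non-coding RNA gene whose site has the same letters as that of TOE2 and which had no value in the tables used here. A matching window is a description and does not show that miR172 acts on the transcript.

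The GMUCT table listed 26731 genes and the RNA-seq tables listed 23809 and 22824. Values are in RPKM, reads per gene corrected for the length of the gene and the size of the library. Depth, estimated from the spacing of low values, was about 19450000 reads in GMUCT against about 18400000 and 8700000 reads in RNA-seq replicates 1 and 2, so the GMUCT library and the first RNA-seq library were of like depth and the second RNA-seq library was shallower. The tissue label was checked with 10 flower genes, which summed to 415 RPKM in GMUCT and to 498 and 495 RPKM in RNA-seq. Of these, AP3 and PI, which specify petals and stamens, stood at 166.39 and 96.72 RPKM in GMUCT. In RNA-seq AP3 had 89.31 and 89.2 RPKM and PI 113.51 and 116.29 RPKM. LFY and UFO were low, at 0.67 and 0.63 RPKM in GMUCT. In RNA-seq LFY had 1.0 and 1.63 RPKM and UFO 0.08 and 0.26 RPKM. Markers of seed storage (5 genes) summed to 3.13 RPKM in GMUCT and to 0.26 and 0.33 RPKM in RNA-seq. Root markers (6 genes) summed to 8.9 RPKM in GMUCT and to 7.3 and 5.61 RPKM in RNA-seq, mostly from IRT1, an iron transporter that flowers also express (4.31 RPKM in GMUCT against 5.5 and 4.33 RPKM in RNA-seq), and COBL9 (1.3 RPKM in GMUCT against 1.74 and 1.15 RPKM in RNA-seq). The endodermal gene CASP1 and the root hair genes RHD6 and EXPA7 were listed at 1.3, 0.56 and 0.83 RPKM in GMUCT and were at 0 in both RNA-seq libraries. WOX5, of the root stem cell niche, had 0.6 RPKM in GMUCT against 0.06 and 0.13 RPKM in RNA-seq, so these 4 low root markers were higher in GMUCT. The part of other tissues in the results was not tested. In whole buds, fewer cells of a type and less RNA per cell cannot be told apart.

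The members split into 3 genes with clear mRNA levels and 3 with very little. AP2 was the most abundant in RNA-seq at 29.6 ± 0.785 RPKM (SD, n = 2, as for all RNA-seq means below), followed by TOE3 at 9.75 ± 1.15 RPKM and TOE2 at 9.21 ± 0.219 RPKM. TOE1 had 0.615 ± 0.0778 RPKM, SMZ 0.585 ± 0.0495 RPKM and SNZ 0.135 ± 0.0495 RPKM. The RNA-seq ranges of TOE3 and TOE2 overlapped, and so did those of TOE1 and SMZ, so neither pair could be ordered. In the 1 GMUCT library TOE2 was highest, followed by AP2 and TOE3, then SMZ and TOE1, then SNZ. AP2 at 8.18 RPKM was 1.22-fold above TOE3 at 6.69 RPKM, and 1 library gives no spread by which to order them. SMZ at 1.19 RPKM and TOE1 at 1.12 RPKM were too close to be ordered there. Together the 6 genes had nearly the same summed RPKM by both assays, 52.6 RPKM in GMUCT against 50.4 and 49.4 RPKM in RNA-seq. RPKM is relative to each library, so like sums do not mean like amounts of uncapped RNA and mRNA. The make-up of that sum was different: TOE2 gave 66.2% of it in GMUCT against 18.6% and 18.3% in RNA-seq, and AP2 gave 15.6% in GMUCT against 57.7% and 61.0% in RNA-seq.

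**Figure D2:**
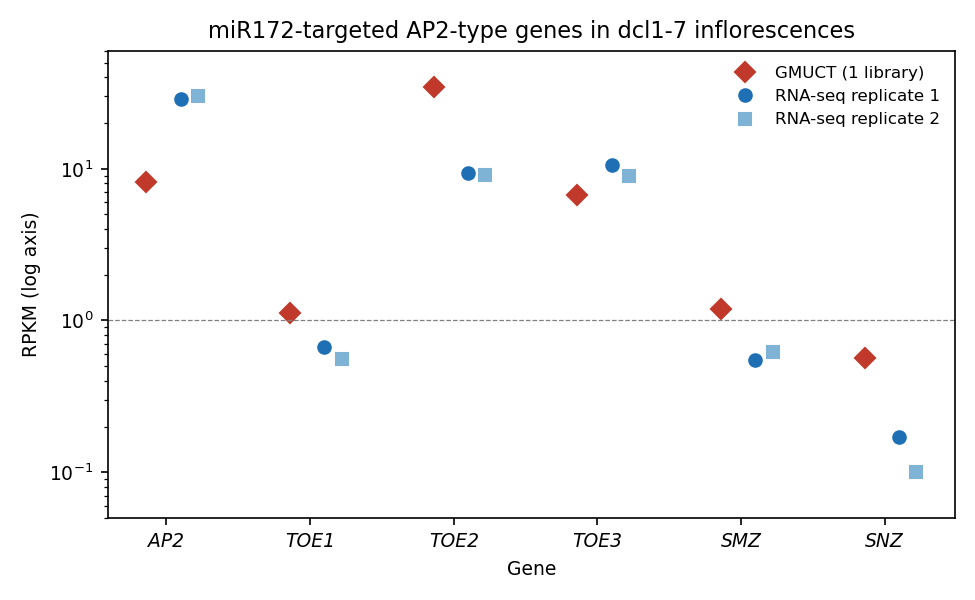
RPKM (log axis) of each gene in the GMUCT library (red diamonds) and in RNA-seq replicates 1 and 2 (blue circles and squares), with a dashed line at 1 RPKM. The GMUCT diamond of TOE2 (34.82 RPKM) lies far above its RNA-seq points and that of AP2 (8.18 RPKM) far below, while TOE1, SMZ and SNZ lie near or under 1 RPKM in all 3 libraries.

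AP2, the floral organ identity gene, was lower in GMUCT than in RNA-seq. It was listed at 8.18 RPKM in GMUCT, against 29.03 and 30.14 RPKM in RNA-seq. The 2 RNA-seq values were alike and the GMUCT value was below both, with the RNA-seq mean 3.62-fold above it. On the log2(RPKM + 0.5) scale, where ratios of low genes come out too small, GMUCT minus RNA-seq was -1.79 (SE 0.06), and limma gave an adjusted p = 0.00458. By level AP2 ranked 9573 among all 26810 genes in GMUCT and 2977 in RNA-seq. Its ratio was low among genes too, as 3.8% of the 20214 genes tested had a lower one.

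TOE2, a flowering repressor with the site closest to the perfect complement of miR172a, went the other way. GMUCT listed it at 34.82 RPKM, against 9.36 and 9.05 RPKM in RNA-seq. The 2 RNA-seq values differed by far less than the gap to GMUCT, which was 3.78-fold above their mean. The log2 difference was 1.86 (SE 0.06; limma adjusted p = 0.00462). TOE2 ranked 2718 in GMUCT and 9366 in RNA-seq, and 89.5% of tested genes had a lower ratio. A higher ratio was found in 2128 tested genes, some of which passed the low-value filter through GMUCT alone. Within the pair, TOE2 was 4.26-fold above AP2 in GMUCT, whereas in RNA-seq AP2 was 3.1-fold and 3.33-fold above TOE2 in replicates 1 and 2.

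TOE3, the member most like AP2 in sequence, had 6.69 RPKM in GMUCT, against 10.57 and 8.94 RPKM in RNA-seq. GMUCT was below both RNA-seq libraries, but those differed more from each other than they did for AP2 or TOE2. The log2 difference of -0.51 (SE 0.15) did not pass the test, with a limma adjusted p = 0.0738. It passed at 0.0367 when genes with a mean under 5 RPKM were left out, a setting in which limma called 35% of genes higher and 44% lower. TOE2 and TOE3 could not be told apart in RNA-seq, where TOE2 was 0.886 and 1.01 times TOE3, but in GMUCT TOE2 was 5.2-fold above TOE3. A gene on the opposite strand, AT5G67170, shares 119 nt of exon with TOE3 and was listed at 7.25 RPKM in GMUCT against 6.16 and 5.02 RPKM in RNA-seq.

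TOE1, SMZ and SNZ, flowering repressors with little mRNA in these buds, did not enter the test, since the mean of their GMUCT value and RNA-seq mean was below 1 RPKM. TOE1 was listed at 1.12 RPKM in GMUCT against 0.67 and 0.56 RPKM in RNA-seq. SMZ had 1.19 RPKM in GMUCT against 0.55 and 0.62 RPKM in RNA-seq. SNZ had 0.57 RPKM in GMUCT against 0.17 and 0.1 RPKM in RNA-seq. GMUCT was above both RNA-seq libraries in each of them, with log2 differences of 0.54 for TOE1, 0.64 for SMZ and 0.75 for SNZ. The 3606 genes with an RNA-seq mean of 0.1 up to 1 RPKM had a median log2 difference of 0.69, so values like those of these members were common. Those genes were picked by a low RNA-seq value, which is part of the ratio and can by itself raise it. Their median therefore does not show a direction. The 2624 genes at 0 in both RNA-seq libraries had a median GMUCT value of 0.48 RPKM. That set cannot show a direction, because such genes had a value nearly always through GMUCT alone. For SNZ the estimated depth gave about 18.6 reads in GMUCT and about 5.24 and 1.46 in RNA-seq, so its ratio rests on very few reads. The exons of SMZ overlap those of AT3G54980 on the opposite strand over 328 nt, 30.6% of SMZ, and that gene was higher than SMZ, at 5.41 RPKM in GMUCT against 5.39 and 6.18 RPKM in RNA-seq. Whether strand was used in counting is not given in the sources used here, so reads of such a pair may be mixed.

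Thus 3 of the 6 members passed the filter on low values, and limma called 1 higher (TOE2) and 1 lower (AP2) in GMUCT. Among all 20214 tested genes it called 32.1% higher and 36.9% lower, so a call in either direction was common in this comparison. The filter averages in the GMUCT value, so genes with little or no RNA-seq value could pass it through GMUCT alone. Such genes could only come out higher, and the shares of tested genes higher in GMUCT, here and below, include them. A rule of size asks that GMUCT be at least 2-fold above each RNA-seq library or 2-fold below each, in RPKM + 0.5. This rule is no test and takes the value of the lone GMUCT library as it stands, with no allowance for spread. TOE2 met it above and AP2 below. It was met by 19.9% of tested genes above and 17.3% below. The median log2 difference of the 3 tested members was -0.51, against -0.07 for all tested genes. The 11608 genes with an RNA-seq mean of 5 up to 50 RPKM, a range that holds these 3 members, had a median of -0.33. That range is also set by the RNA-seq value, which can shift its median. Over all 6 members the median was 0.59, against 0.22 over all genes with no filter. With no filter, limma also called SMZ and SNZ higher, at adjusted p = 0.0343 and 0.0482, and did not call TOE1, at 0.0658. There 33.9% of all genes were called higher and 23.6% lower. With 1 residual degree of freedom, limma took the unknown spread of the single GMUCT library to be that of RNA-seq. The labels do not say whether replicates came from separate plants, so the p-values may reflect technical spread alone.

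**Figure D3:**
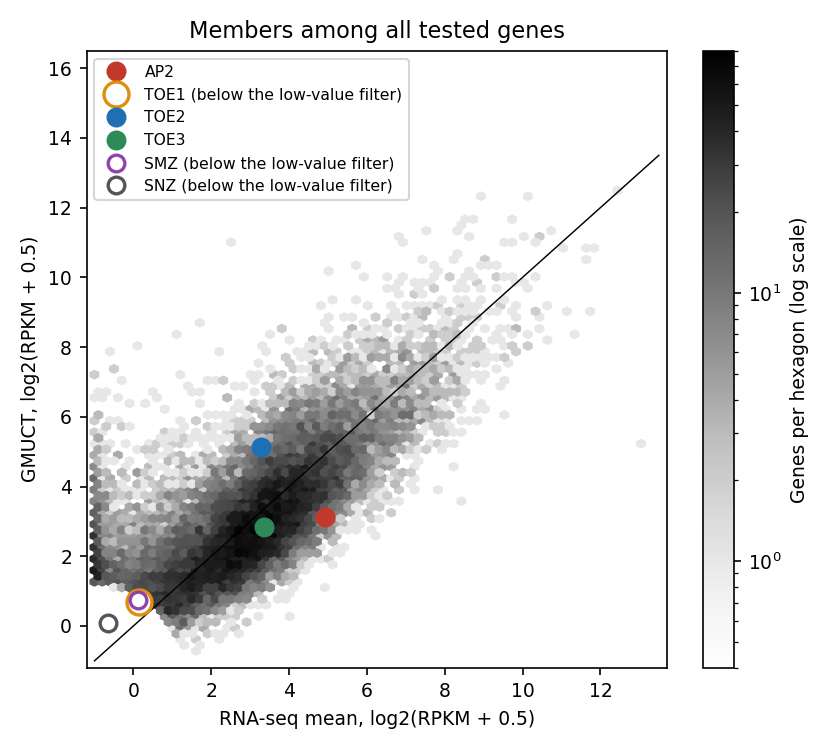
GMUCT against the RNA-seq mean, both as log2(RPKM + 0.5), for 20214 tested genes (grey hexagons, darker for more genes) with the 6 members as circles, open where a member was below the low-value filter, and a line where the assays are equal. TOE2 (log2 difference 1.86) and AP2 (-1.79) lie on opposite sides of the line, both inside the cloud, and TOE3 (-0.51) lies close to it.

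The cloud of genes held close neighbours of each tested member. Nearest to AP2 over the 3 libraries, by Euclidean distance on the log2 scale, were FYD (AT3G12570), at 8.1 RPKM in GMUCT against 29.32 and 29.99 RPKM in RNA-seq, and AGO10 (AT5G43810), an Argonaute gene, at 8.35 RPKM in GMUCT against 28.65 and 30.15 RPKM in RNA-seq. Their distances were 0.0207 and 0.0337. Nearest to TOE2 were AT5G58300, a leucine-rich repeat receptor kinase gene (33.82 RPKM in GMUCT against 9.87 and 9.34 RPKM in RNA-seq), and EDA25 (36.29 RPKM against 9.04 and 9.43 RPKM), at 0.0942 and 0.0943. Nearest to TOE3 were AT1G23890 at 0.0613 and EMB3103 at 0.0668. With 3 libraries, such a likeness says only that these genes have like levels.

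The members were related in sequence but were not near-copies of each other. AP2 and TOE3 matched at 79.9% over 518 nt of transcript and SMZ and SNZ at 74.9% over 769 nt, while TOE1 and TOE2 matched at 73.8% over 385 nt. No member had a copy of at least 95% identity over at least 50% of its transcript. TOE2 had such identity over 7.9% of its length, mostly from a match of 96.3% to AT3G08845, and SNZ over 2.79%. The share of reads that fell in these stretches is not known, since the values do not show where in a transcript reads lay.

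The 12 other AP2-family genes, which have the same kind of DNA-binding domain, included growth regulators of the ANT and AIL group and fatty acid regulators of the WRI group. Their best windows had between 6 and 9 mismatches to miR172a, with a median of 8. ANT, which promotes organ growth in young flower organs, came closest, and its window is shown for contrast with the member sites.

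ANT: tcgaatcaccatcaagattca

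Of the 12 genes, 7 passed the filter, with 0 called higher, 5 lower and 2 not past the test, where 32.1% of all tested genes were called higher and 36.9% lower. Their median log2 difference was -0.64, against -0.07 for all tested genes. Genes with an RNA-seq mean of 5 up to 50 RPKM, a range that holds some of the 7, had a median of -0.33. Over all 12 genes the median was 0.03, against 0.22 over all genes with no filter. PLT1, BBM and AT1G72570, at 0 in both RNA-seq libraries, had 1.0, 0.62 and 0.27 RPKM in GMUCT, and PLT2 had 0.26 RPKM in GMUCT against 0.06 and 0 RPKM in RNA-seq. ANT had 11.08 RPKM in GMUCT against 36.15 and 35.31 RPKM in RNA-seq, a log2 difference of -1.65 (SE 0.05; limma adjusted p = 0.00458), close to that of AP2. AIL6, which acts with ANT in flowers, had 0.82 RPKM in GMUCT against 2.09 and 1.95 RPKM in RNA-seq and was lower by a log2 difference of -0.93 (limma adjusted p = 0.0102). WRI1, WRI3 and WRI4 were also called lower, by smaller differences of -0.48 to -0.75. These 3 calls were close to the threshold: WRI1 lost its call with a pseudocount of 0.1, with the median of all genes set to 0 and with a length trend removed (limma adjusted p = 0.0501, 0.0544 and 0.0807), and WRI3 and WRI4 lost theirs with no filter (0.0584 and 0.0664). The 2 genes that did not pass were AT2G41710, at 9.61 RPKM in GMUCT against 9.78 and 9.96 RPKM in RNA-seq, and AIL5, at 4.06 RPKM in GMUCT against 2.94 and 2.54 RPKM in RNA-seq. With a trend of the ratio with transcript length removed, AIL5 passed as higher, at 0.81 on the log2 scale (limma adjusted p = 0.0275). None of the 7 was as high in ratio as TOE2. AP2, with a miR172 site, and ANT, whose best window had 6 mismatches, had like ratios. Whether the site bears on the ratio was not tested.

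Genes that act with or around the members were taken as lists. TPL and its relatives TPR1 to TPR4 encode co-repressors and HDA19 a histone deacetylase that AP2 brings to its targets. All 6 were tested, of which 1 was called higher and 4 lower while 1 did not pass, and the median was -1.26. Over all tested genes 32.1% were called higher and 36.9% lower, with a median of -0.07. TPL had 4.34 RPKM in GMUCT against 37.93 and 36.11 RPKM in RNA-seq, a log2 difference of -2.95 (SE 0.07; limma adjusted p = 0.00382), a wider gap than that of AP2. TPR4 followed at -1.93. TPR3 and TPR2 were called lower at -1.68 and -0.84. HDA19 was the one called higher, at 68.35 RPKM in GMUCT against 37.53 and 34.72 RPKM in RNA-seq (0.91, SE 0.07; limma adjusted p = 0.00878). TPR1 differed by -0.15 and did not pass. With a trend of the ratio with transcript length removed, TPR1 differed by 0.56 and was called higher (limma adjusted p = 0.0132), and TPR2 differed by -0.13 and lost its call (0.197). The same step brought TPL to -2.2, TPR4 to -1.21 and TPR3 to -1.0, all still called lower.

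Upstream of miR172 stand the SPL factors, which switch its genes on as the plant matures. The list held 12 genes, which were SPL genes and AT3G52250, all with a value and tested. Of them 2 were called higher, 8 lower and 2 not past the test, with a median of -0.68. Over all tested genes 32.1% were called higher and 36.9% lower, with a median of -0.07. SPL9, a known activator of MIR172B, had 9.49 RPKM in GMUCT against 43.38 and 45.48 RPKM in RNA-seq, a log2 difference of -2.17 (SE 0.06; limma adjusted p = 0.00434). SPL5 had 111.56 RPKM in GMUCT against 41.82 and 38.01 RPKM in RNA-seq (1.47, SE 0.09; limma adjusted p = 0.00626). The other gene called higher, SPL13B, was at 0 in both RNA-seq libraries and at 5.24 RPKM in GMUCT, and no fold is given. SPL13B passed the filter through its GMUCT value alone, so it could only come out as higher. It and SPL13A each have a copy of at least 95% identity over 100% of the transcript, so their values are uncertain. AT3G52250, also on this list, had a log2 difference of -1.68 and was called lower, as it was at -0.68 with a trend of the ratio with transcript length removed. SPL10, called lower at -0.53, came to 0.01 and lost its call with that trend removed.

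Genes that AP2-type factors are known to regulate numbered 9. The test covered 8 of them, of which 3 were called higher and 3 lower while 2 did not pass, and the median was -0.13, against 32.1% higher, 36.9% lower and -0.07 over all tested genes. RPL, a homeobox gene of the fruit that represses SHP1 and IND, had 68.34 RPKM in GMUCT against 14.32 and 15.27 RPKM in RNA-seq, a log2 difference of 2.17 (SE 0.07; limma adjusted p = 0.00458) that was above that of TOE2. SHP1 and IND, which form the margin of the fruit valve, were called higher at 1.04 and 0.99. AG, which AP2 represses in outer organs, had 7.54 RPKM in GMUCT against 14.29 and 15.58 RPKM in RNA-seq, a log2 difference of -0.94 (SE 0.09; limma adjusted p = 0.0113). SEP3, a partner of the floral organ factors, was lower at -1.45, and SOC1, a flowering activator, at -0.63. FT, the mobile flowering signal that SMZ represses, did not enter the test, at 0.91 RPKM in GMUCT against 0.68 and 0.37 RPKM in RNA-seq.

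**Figure D4:**
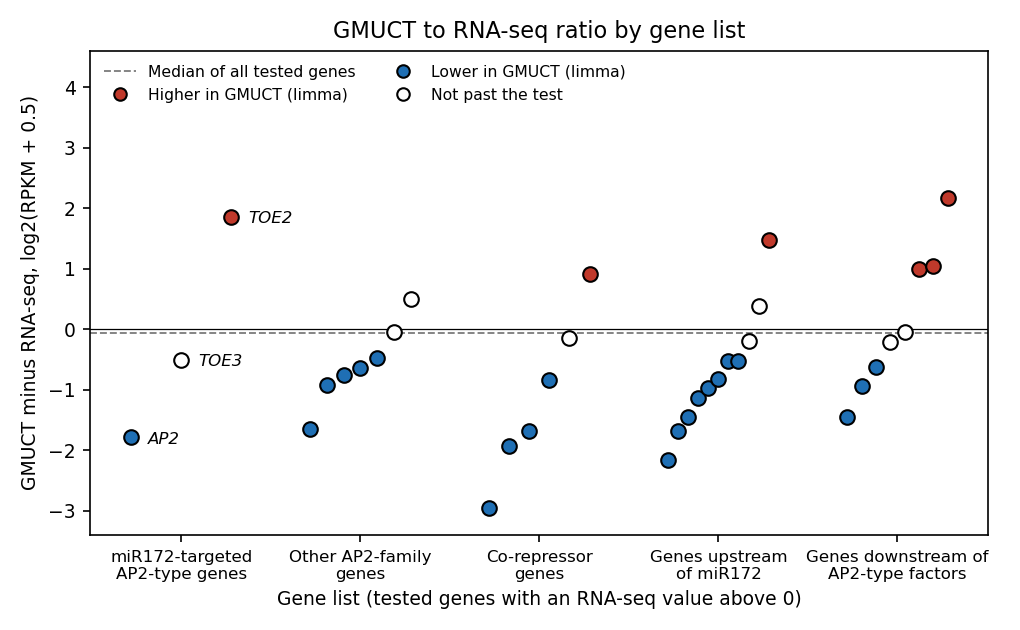
GMUCT minus RNA-seq on the log2(RPKM + 0.5) scale for each tested gene of the 5 lists, filled red where limma called it higher in GMUCT, blue where lower and white where it did not pass. The 3 tested members span -1.79 to 1.86, the other AP2-family genes have no red point, and the dashed line is the median of all tested genes, -0.07. SPL13B, at 0 in RNA-seq, is left out.

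Of the 41 non-members with a window of at most 4 mismatches, 31 had a value and 27 were tested. Limma called 7 of them higher, 10 lower and 10 neither, with a median log2 difference of -0.24, where 32.1% of all tested genes were called higher and 36.9% lower. The one tested non-member with 3 mismatches, AT5G12900, had 5.41 RPKM in GMUCT against 8.74 and 7.01 RPKM in RNA-seq, a log2 difference of -0.5 that did not pass the test. Among the tested members, TOE2 with 1 mismatch to miR172a differed by 1.86 on the log2 scale. AP2 with 2 mismatches differed by -1.79 and TOE3 with 3 mismatches by -0.51. These mismatch counts hold for miR172a and not for every form, and 3 genes are too few to relate the site to the ratio.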

How the data were processed

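For each library the authors deposited RPKM values per gene identifier, with 2 decimals. Per the submitters' processing notes, cutadapt 1.4.2 trimmed adapters, STAR 2.4.0 aligned reads and the build was TAIR10. The counting tool, annotation, gene lengths and use of strand were not given in the sources used here. A gene missing from a table was taken as 0 RPKM. Symbols, transcripts and sequences came from RefSeq TAIR10.1, which held 26459 of 26810 identifiers and all 6 members.

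RPKM are not counts, so log2(RPKM + 0.5) was tested with limma 3.58.1 in R 4.3.3 (eBayes with trend, two-sided, Benjamini-Hochberg at 0.05) over the 20214 genes with a mean of the RNA-seq mean and GMUCT of at least 1 RPKM. GMUCT had 1 library and its spread was assumed to be that of the 2 RNA-seq libraries. Depth was estimated from steps of 1 read in low values. The depth kept was the one that put the largest share of those values near a whole read. That share, within 0.1 of a whole read, was 37.7% in GMUCT and 36.1% and 35.6% in RNA-seq. Chance gives 20% for a depth not chosen this way, and more for the best of many. Depth is therefore approximate and no intervals were made. Sites were found by ungapped comparison with transcripts, and copies with BLAST 2.17.0.

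The members and the lists were chosen with earlier results of these data known. Named genes were the members, list genes (per list at least the 2 top and 2 bottom ratios), the 2 nearest genes of each tested member and genes with a site. Those tested were refitted under each alternative, the non-members with a site only where it had at most 3 mismatches. Alternatives covered pseudocounts, filters, centring, a length trend, limma without trend, fold thresholds, mismatch limits and leaving out each RNA-seq library, which gives values with no test.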

Additional observations from a re-analysis of the deposited data

How the results depend on the processing

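AP2 stayed between -1.72 and -1.84 and TOE2 between 1.81 and 2.3 on the log2 scale, and limma called both under each alternative that it was run on. Leaving out an RNA-seq library gave AP2 -1.82 to -1.77 and TOE2 1.84 to 1.89 with no test. Over 51 genes, 326 of 347 results under an alternative kept direction and call. A call was lost with the direction kept in 9, for WRI1, WRI3, WRI4, TPR2, AP1 and PI. A call was gained with the direction kept in 6. They were TOE3, AT1G23890, EMB3103 and SPL3 at the 5 RPKM filter, SPL3 with the median of all genes set to 0, and AIL5 with a length trend removed. The other 6 changed sign: AT2G41710 became 0.04 and SHP2 0.03 with the median of all genes set to 0, and a length trend removed gave AT2G41710 0.01, SPL10 0.01, TPR1 0.56 and COBL9 0.16. With that trend removed, SPL10 also lost its call as lower and TPR1 gained one as higher. That step also brought AGO10 to -1.08 and EDA25 to 2.58. With no filter on low values, 3 members were called higher, the member median was 0.59 and that of the other AP2-family genes 0.03. With a filter at 5 RPKM, 2 members were called lower, and 2499 genes were 2-fold above both RNA-seq libraries. A 1.5-fold threshold put 6075 genes below. A 4-fold threshold put 1760 genes above and 395 below, with 0 members above and 0 below. The median of the other AP2-family genes was -0.57 after centring, -0.51 with the length trend removed, and -0.66 to -0.57 when either RNA-seq library was left out; the cause was not tested. Windows with at most 3 mismatches were found in 9 genes and with at most 5 in 330. No paired analysis was possible because the groups share fewer than 2 replicate numbers. The single GMUCT library and the low depth of TOE1, SMZ and SNZ limit what can be said of them.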

Other observations

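Calls on the flower markers went both ways, as was common over all tested genes. Of 10 flower markers 8 were tested, with 2 called higher in GMUCT, 6 lower and a median log2 difference of -0.48, against 32.1% higher, 36.9% lower and -0.07 over all tested genes. AP1, which acts with AP2 in sepals and petals, had 32.15 RPKM in GMUCT against 64.29 and 54.08 RPKM in RNA-seq (-0.86, SE 0.14; limma adjusted p = 0.0259, and 0.0704 with no filter). AP3 was called higher at 0.89 (limma adjusted p = 0.00568), while PI, its partner in petals and stamens, was called lower at -0.25 (limma adjusted p = 0.037), a call lost with the median of all genes set to 0 (0.0706) and without limma's trend (0.0703). SEP1, SEP2 and SEP3 were lower at -0.42, -0.54 and -1.45, and SEP4 was higher at 0.66. LFY and UFO, which act before the organ identity genes, did not enter the test.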
